A study of Mus musculus with 12 samples.

Results

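DNA methylation was compared between B cells that had divided at least 8 times in a mouse without gaining CD138 (Div8neg) and B cells of the same transfers that had not divided (Div0). CD138, encoded by Sdc1, is the surface protein by which plasmablasts and plasma cells are sorted. The comparison used 4 of the 12 libraries of the series, 2 Div8neg and 2 Div0, and all 760348 CpGs that the deposited table covers with at least 10 reads in every library. No CpG was chosen by its methylation.

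Naive splenic B cells (B220+ CD43-) from C57/BL6J mice, per the design text, were loaded with CFSE or CTV, dyes that are diluted at each division, and moved into uMT mice, a strain that lacks mature B cells of its own. The hosts, numbered 196 and 197, then received LPS, a bacterial ligand of Toll-like receptors, and cells were sorted from the spleen on day 3. All groups share the transfer, the uMT host and LPS, so Div0 cells are undivided cells of LPS-treated hosts and not untreated cells. The other fractions were Div1, Div3 and Div5, named for their divisions, and Div8pos, the CD138-positive cells of at least 8 divisions. Each fraction had 2 libraries, 1 per host, made by reduced representation bisulfite sequencing, which reads the ends of MspI and TaqI fragments. The labels give female mice of 8 weeks and the strain B6.SJL-Ptprca Pepcb/BoyJ, which is not the donor strain of the design text, and do not say whether the 2 hosts received cells of the same donors.

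Methylation of cytosine in CpG pairs is copied to the new strand after replication by Dnmt1, can be lost when copying fails or when Tet enzymes oxidise it, and is newly set by Dnmt3a and Dnmt3b. Promoters of active genes and CpG islands are usually unmethylated, and most other CpGs are methylated. B cells answering LPS divide quickly, and some of them become antibody-secreting plasmablasts under Prdm1 and Irf4, while the B cell programme set by Pax5 is turned down.

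The Div8neg libraries held 19210982 reads over these CpGs in host 196 and 35765262 in host 197, against 17969105 and 45423158 in the Div0 libraries. A CpG had a median of 22 and 41 reads in Div8neg and 20 and 52 reads in Div0, so host 197 gave the finer levels, and over all 12 libraries the totals ran from 17969105 to 56775157. A total of 81 CpGs of chromosome Y reached 10 reads in all 12 libraries, although the labels call the mice female. Of the B cell markers, Pax5 had 5 covered promoter CpGs, which were at 1.18% and 5.22% in Div8neg and at 0% and 0% in Div0. A level is a share of reads from all sorted cells, so a change in every cell and a change in the mix of cells cannot be told apart. Where 2 values are given for a fraction, the first is host 196 and the second host 197.

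Mean methylation over all CpGs was 53.2% ± 0.0442 in Div8neg and 56.0% ± 0.215 in Div0 (SD, n = 2 hosts each). Host by host, the difference was -2.98 points in host 196 and -2.74 points in host 197. The groups did not overlap, but an exact two-sided permutation test of 2 libraries against 2 cannot give less than the p of 0.33 that it gave. With reads summed over CpGs, the difference was -5.80 points.

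Loss was by far the more frequent change at single CpGs. Of all CpGs, 5935 (0.781%) were lower in Div8neg and 302 (0.0397%) were higher, where lower and higher mean a Benjamini-Hochberg adjusted p under 0.05 in a quasi-binomial model and a difference of at least 20 points. Of the lower CpGs, 5733 were lower by at least 10 points in both hosts, as were 287 of the higher ones upwards. The same libraries chose these CpGs, so this agreement of the hosts follows in part from the choice. The median difference was -30.3 points at lower CpGs and 25.7 points at higher CpGs. A loss of 50 points or more was seen at 642 CpGs and a gain of that size at 2. Losses were seldom complete, since 2206 of the lower CpGs (37.2%) ended under 50% and 520 under 20%. They were also scattered, because of 18808 genes with a covered CpG, 3013 had a lower CpG, 1963 of these had exactly 1, and 23 had 10 or more. With a separate estimate of spread at every CpG, no CpG passed in either direction. An unadjusted p under 0.05 was found in that model at 42817 of the 760348 CpGs. That is little over the share of 0.05 which such a limit gives when nothing differs. Of these 42817, 39562 were lower and 3255 higher. With a common dispersion, edgeR called 6332 lower and 314 higher. The counts of lower and higher CpGs given here thus rest on a spread shared by all CpGs.

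Among passing CpGs with at least 30 reads in each of the 4 libraries, the largest loss was in an intron of Slc20a2, a phosphate transporter, where a CpG (chromosome 8, 23650727, mm9) stood at 10.5% and 14% in Div8neg against 94.7% and 91.7% in Div0. A second CpG of the same intron, at 23650706, was at 21.6% and 20.0% in Div8neg and at 92.1% and 90.5% in Div0. Both hosts thus reached the same low level. Both CpGs were already at 23.3% or less in Div5. A CpG in an intron of Pced1b (chromosome 15, 97210425) was at 27.0% and 16.7% in Div8neg and at 96.7% and 94.1% in Div0, and unlike Slc20a2 it still stood at 71.0% and 77.8% in Div5. Another of the 5 largest losses with at least 30 reads lay upstream of Arhgef11, a guanine nucleotide exchange factor, at 22.7% and 28.4% in Div8neg and at 97.6% and 96.8% in Div0.

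Where losses lay was read among CpGs that could have lost 20 points, those at 20% or more in Div0. There 1.94% of promoter CpGs were lower, 1.68% of intronic, 1.29% of 5′ UTR, 1.27% of 3′ UTR, 1.05% of intergenic and 0.62% of other exonic CpGs. By distance from the nearest start site the share was 1.26% within 500 bp, 2.16% from 500 to 2500 bp, 1.5% from 2.5 to 10 kb, 1.34% from 10 to 50 kb and 0.803% beyond 50 kb. CpGs with no other covered CpG within 100 bp were lower in 1.43% of cases, and those with more than 10 in 0.179%. Gains had another layout. Among CpGs that could have gained 20 points, 0.012% of promoter CpGs were higher, against 0.139% of intronic, 0.166% of intergenic and 0.257% of 3′ UTR CpGs, and within 500 bp of a start site the share was 0.00579%. The share of lower CpGs also differed with coverage, from 0.791% among CpGs with a median of under 20 reads to 2.34% among those of 60 to under 150 reads and 1.47% at 150 or more. Median coverage was 34.5 reads in both promoters and exons, 26 reads where no other covered CpG lay within 100 bp and 38 reads where more than 10 did. The part of coverage in these shares was not tested. Autosomes lay between 1.10% and 1.51% lower, chromosome 11 being the highest, and chromosome X had 1.21% lower and 0 higher CpGs, or 0.0% of those that could rise.

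**Figure D1:**
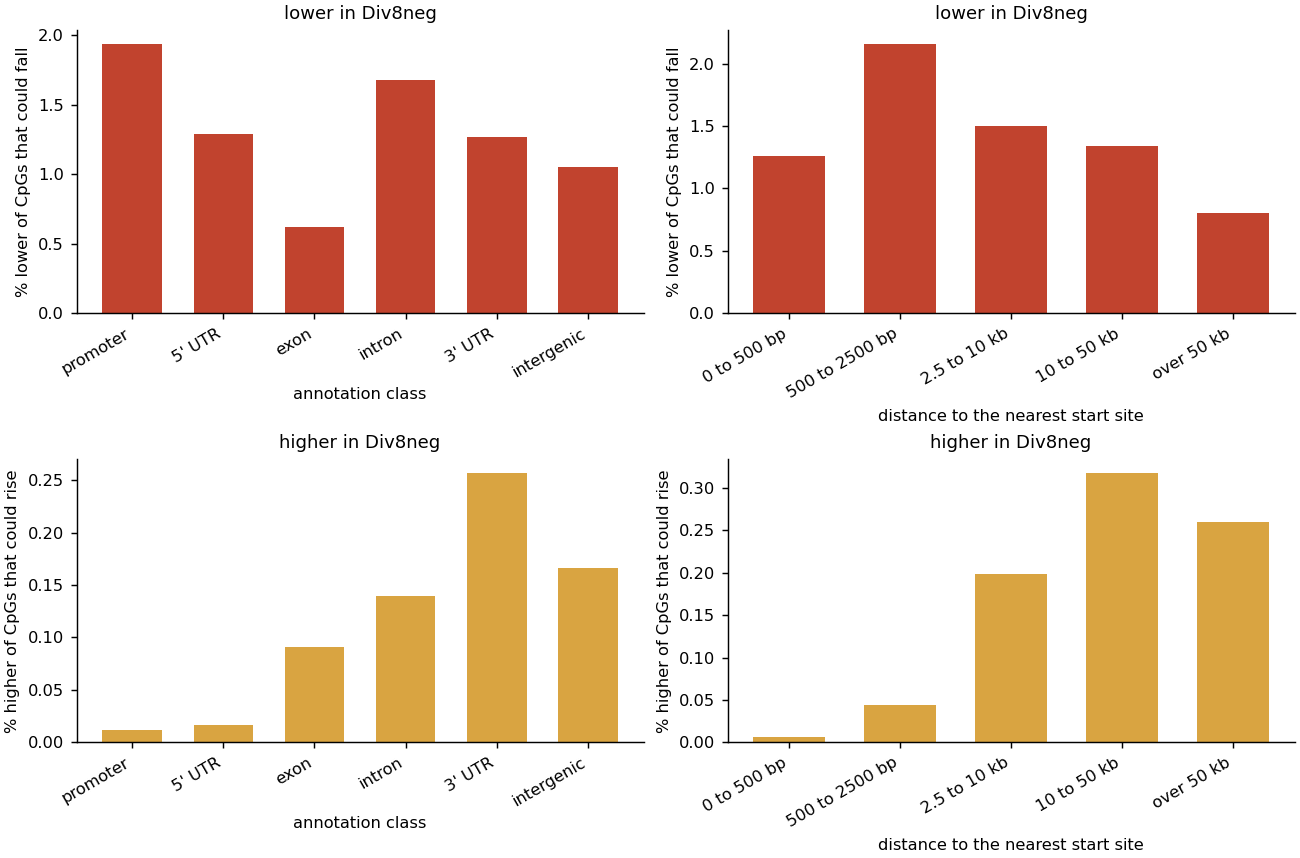
Share of CpGs lower (top, % of CpGs at 20% or more in Div0) and higher (bottom, % of CpGs at 80% or less in Div0) in Div8neg than in Div0, by annotation class (left) and by distance to the nearest start site (right). Losses peaked at 2.16% between 500 and 2500 bp from start sites, and gains were rarest within 500 bp, at 0.00579%; the top and bottom axes differ in scale.

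To keep the starting level apart from the difference, CpGs were binned by their Div0 level in one host and read in the other. CpGs that started at 60 to 80% differed by -7.94 points in host 196 and by -7.63 points in host 197, those that started at 80 to 90% by -7.36 and -6.98 points, and those that started at 90 to 100% by -4.09 and -4.50 points. Below these, the difference was -5.26 and -5.13 points for CpGs that started at 40 to 60%, and -1.87 and -0.948 points for those at 20 to 40%. CpGs that started under 20% differed by -0.256 points in host 196 and by 0.757 points in host 197, so the hosts disagree in sign there.

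Summarised by gene, 246 of 16505 genes were lower (1.49%) and 2 were higher (0.0121%), called at 10 points or more and an adjusted p by limma under 0.05, over 5 or more CpGs within 50 kb of a start site. The median over all genes was -2.28 points. Genes with few covered CpGs were frequent among them, since 128 of the 246 had 5 to 9 CpGs, and the median was 9 CpGs against 26 over all genes. Of the 246, 166 held a CpG that was lower by itself.

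Cd86, the costimulatory ligand that activated B cells show to T cells, had 72.1% and 73.8% in Div8neg against 93.6% and 93.5% in Div0 over 21 CpGs (chromosome 16, 36597097 to 36664665, mm9). It fell by 20.5 points (limma, SE 1.24, adjusted p 7.6e-05). Tnfrsf13c, the receptor through which BAFF keeps mature B cells alive, had 55.7% and 55.1% in Div8neg and 76.2% and 75.8% in Div0 over 15 CpGs, and fell by 20.6 points (limma, SE 1.49, adjusted p 0.000166). In both genes the libraries of a group lay within 2 points of each other and the groups were far apart. Pik3ip1, a membrane inhibitor of phosphoinositide 3-kinase, had 35.4% and 25.7% in Div8neg and 57.2% and 56.3% in Div0 over 5 CpGs. Gimap4, a small GTPase of lymphocytes, had 18.5% and 25.1% in Div8neg and 63.2% and 65.9% in Div0 over 8 intergenic CpGs.

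Among the lower genes were nuclear proteins of the interferon response on chromosome 1. Sp110 was at 50.3% and 47.0% in Div8neg and at 78.6% and 76.8% in Div0, and Sp100, a component of nuclear bodies, was at 73.1% and 73.7% in Div8neg and at 93.6% and 96.7% in Div0. Sp100 fell by 21.7 points (limma, SE 1.48, adjusted p 0.00013). Their courses differed in the fractions between, since Sp110 averaged 51.9% in Div5 and Sp100 averaged 83.5% there. Intronic CpGs of Sp140 on the same chromosome were also lower, at 43.3% and 42.9% in Div8neg and at 66.7% and 66.2% in Div0. Their span overlaps that of Sp110, so the genes may share CpGs. Il1a, the gene of the cytokine interleukin 1 alpha, had 60.8% and 54.0% in Div8neg and 82.2% and 76.7% in Div0 over 5 CpGs, and with reads summed over CpGs its limma adjusted p was 0.0858.

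Genes with household roles stood beside these. Ndufb10, a subunit of respiratory complex I, had 31.4% and 27.1% in Div8neg and 74.2% and 72.0% in Div0 over 7 CpGs, the largest gene difference of the 16505. C1qbp, a protein of the mitochondrial matrix, had 78.1% and 71.9% in Div8neg and 97.2% and 93.8% in Div0, and averaged 41.5% in Div8pos. Cnp, an enzyme best known from myelin, was at 63.9% and 62.7% in Div8neg and at 83.0% and 83.6% in Div0 over 29 CpGs, the most CpGs of any of the 20. Ppm1m, a protein phosphatase, was at 59.7% and 61.0% in Div8neg and at 81.7% and 82.8% in Div0. Cyp8b1, Rab30, Zfp146, Rnf167, Unc119, Gm8817, Gm14005 and E230025N22Rik, the others of the 20 apart from Mir146, fell by 31.0 to 19.6 points.

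**Figure D2:**
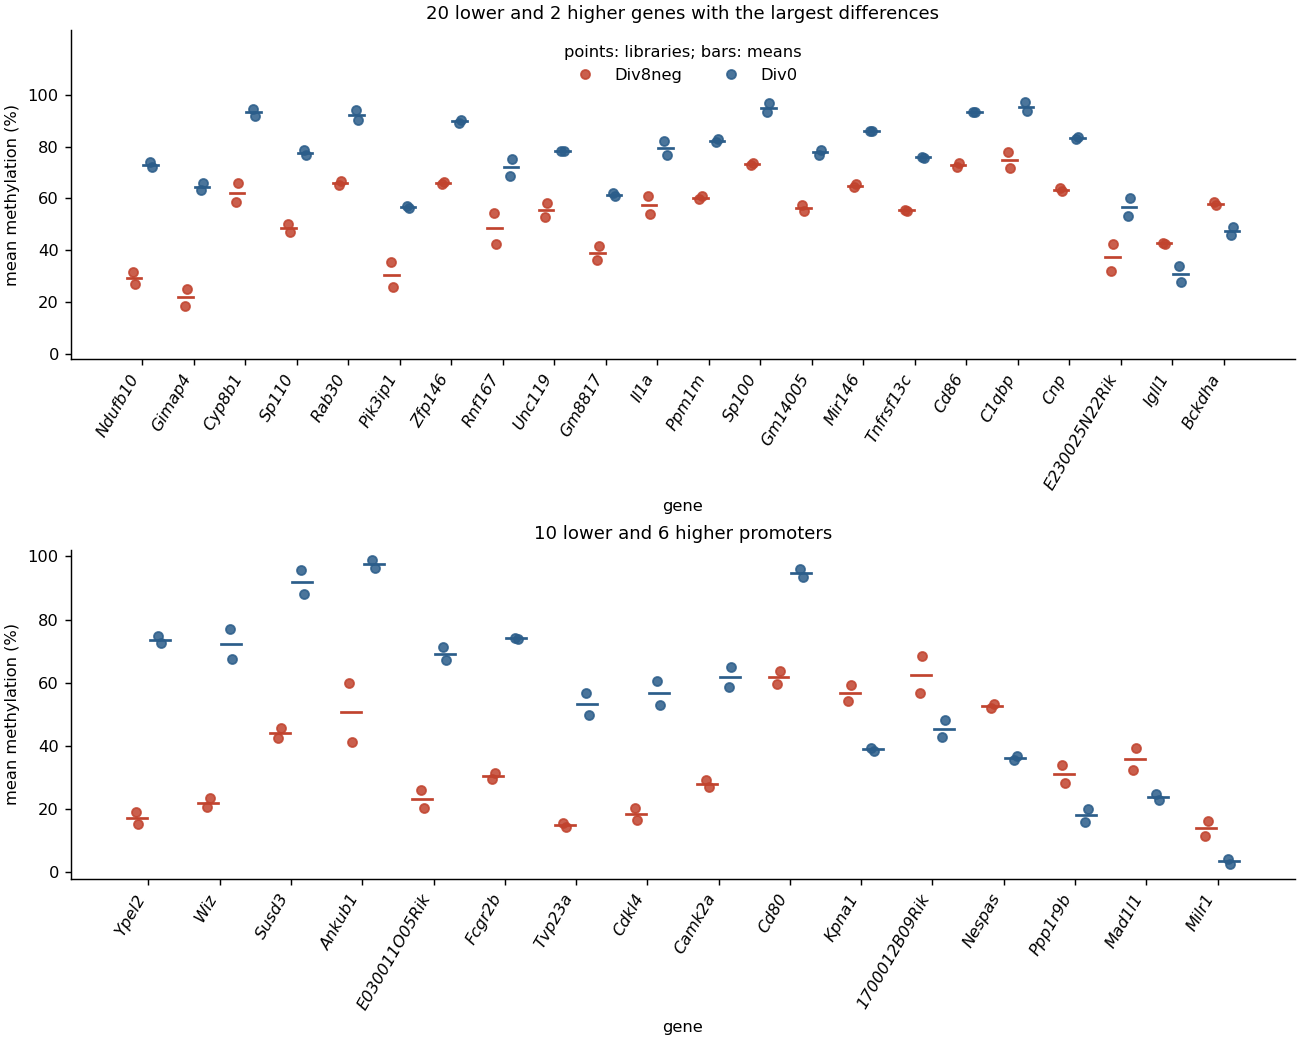
Mean methylation (%) of the 20 lower genes with the largest differences and the 2 higher genes (top), and of the 10 lower promoters with the largest differences and 6 of the 7 higher promoters (bottom), in Div8neg (red, left of each pair) and Div0 (blue, right). Points are the 2 libraries and bars their mean; at Kpna1, Div8neg stands at 54.1% and 59.2% and Div0 at 39.4% and 38.5%.

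Of 99 microRNA genes tested 5 were lower (5.05%), beside 1.49% of all genes. Among all genes with only 5 to 9 covered CpGs, 128 of 2317 were lower, a share much like that of microRNA genes. The 5.05% is therefore not read as a trait of microRNA genes. Mir146 encodes miR-146a, which restrains Toll-like receptor signalling by binding the transcripts of Traf6 and Irak1. Its 15 intergenic CpGs (chromosome 11, 43155137 to 43201159, mm9) stood at 64.3% and 65.7% in Div8neg and at 86.0% and 86.1% in Div0, a difference of -21.0 points (limma, SE 1.21, adjusted p 6.32e-05). Mir29b-1, whose product binds transcripts of Dnmt3a and Dnmt3b in human cells, had 41.6% and 44.1% in Div8neg and 56.7% and 55.4% in Div0 over 12 CpGs. Mir196a-1, which lies among Hox genes, had 37.0% and 41.8% in Div8neg and 54.0% and 51.9% in Div0 over 11 promoter CpGs. Mir182 had 57.3% and 57.9% in Div8neg and 73.6% and 62.4% in Div0, with an adjusted p by limma of 0.0495. The products are shown because the genes are named by them, with the seed, bases 2 to 8 from the 5′ end, in capitals. The sequences are from RefSeq (GRCm38.p6), and methylation was read around these genes and not within these bases.
mmu-miR-146a-5p: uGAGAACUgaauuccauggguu
mmu-miR-29b-3p: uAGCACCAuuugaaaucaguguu
mmu-miR-196a-5p: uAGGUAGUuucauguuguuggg
mmu-miR-182-5p: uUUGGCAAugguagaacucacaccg
No seed was shared among these 4.

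Promoters were summarised apart, as the covered promoter CpGs of each gene with at least 3 of them. All promoter CpGs annotated to a gene were averaged together, so some means join CpGs that lie far apart. Those of Blnk run from 41034387 to 41071430 on chromosome 19, and those of Mad1l1 from 140739228 to 140797628 on chromosome 5 (mm9). Of 10171 promoters, 182 were lower (1.79%) and 7 higher (0.0688%), and of the 3018 at 20% or more in Div0, 5.86% were lower. Intergenic CpGs of a gene were lower as a mean in 572 of 9118 genes (6.27%) and higher in 8 (0.0877%). Introns outside promoters were lower in 486 of 11804 genes (4.12%) and exons in 168 of 10927 (1.54%), with 6 introns (0.0508%) and 14 exons (0.128%) higher. The intron was measured in 118 of the genes with a lower promoter and was lower in 12 (10.2%, beside 4.12% of all introns), and the exon in 96 and lower in 2 (2.08%, beside 1.54% of all exons). Few reached low levels: 18 of the 182 stood under 20% in Div8neg, and 145 stood at 50% or more in Div0.

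Ypel2, a small zinc-binding protein of unclear role, had the largest promoter loss, with 19% and 15.2% in Div8neg against 74.7% and 72.6% in Div0 over 4 CpGs (chromosome 11, 86808514 to 86808663, mm9). It fell by 56.6 points (limma, SE 2.56, adjusted p 9.91e-05), while its exon and intron differed by -0.598 and -2.10 points. Wiz, a zinc finger partner of the G9a histone methyltransferase, was at 20.6% and 23.4% in Div8neg and at 77.1% and 67.6% in Div0. Fcgr2b, the inhibitory Fc receptor of B cells, was at 29.6% and 31.4% in Div8neg and at 74.3% and 73.7% in Div0. Cd80, which binds CD28 as Cd86 does, was at 59.7% and 63.6% in Div8neg and at 96.1% and 93.5% in Div0. In each of these promoters both Div8neg libraries lay far below both Div0 libraries. Susd3, Ankub1, E030011O05Rik, Tvp23a, Cdkl4 and Camk2a completed the 10, with differences from -47.9 to -33.8 points. Ankub1 was the least even of them, at 59.9% and 41.4% in Div8neg.

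The following 5 of the 182 lower promoters were chosen after their values were seen. Ifi30, a thiol reductase of antigen processing, had 40.3% and 37.2% in Div8neg and 64.2% and 64.3% in Div0 over 15 CpGs. H2-DMb1, which helps load peptides on class II molecules, had 72.3% and 78.0% in Div8neg and 93.9% and 96.0% in Div0. Cd52, a glycoprotein of lymphocytes, had 17.2% and 28.4% in Div8neg and 64.7% and 43.8% in Div0, so its Div0 libraries were over 20 points apart. Tk1, the thymidine kinase of dividing cells, had 58.5% and 59.1% in Div8neg and 89.3% and 91.0% in Div0. Tnfsf13b, which encodes BAFF, the ligand of Tnfrsf13c, had 69.9% and 61.1% in Div8neg and 85.8% and 91.4% in Div0.

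Of the 189 promoters that passed, 130 had a RefSeq promoter sequence, and in 24 genes the covered CpGs could be placed in it by their spacing alone, since the table is in mm9 and the sequences are of GRCm38.p6. Shown are 3 of these with a CpG that was lower by itself, so that the CpGs read can be seen in place. They do not stand for all 24 genes. In Sh3glb1 and Kcnn4, whose promoter means fell by 28.6 and 18.5 points, 0 of the 5 and 0 of the 3 placed CpGs passed. Those CpGs stood between 0% and 14.29% in both groups, so the losses of these 2 promoters lay outside the placed sequence. Capitals mark the covered CpGs, and each sequence runs 5′ to 3′ in the direction of the gene from 250 bases before the start to 50 after it.
E030011O05Rik, chr9:96752782-96753081, minus strand: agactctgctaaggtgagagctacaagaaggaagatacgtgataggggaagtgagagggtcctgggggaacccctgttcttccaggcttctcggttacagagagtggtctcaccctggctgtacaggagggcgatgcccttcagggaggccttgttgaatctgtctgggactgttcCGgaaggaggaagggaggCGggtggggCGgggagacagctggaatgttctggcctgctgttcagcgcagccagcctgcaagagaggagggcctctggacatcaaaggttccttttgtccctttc
Ccl22, chr8:94745434-94745733, plus strand: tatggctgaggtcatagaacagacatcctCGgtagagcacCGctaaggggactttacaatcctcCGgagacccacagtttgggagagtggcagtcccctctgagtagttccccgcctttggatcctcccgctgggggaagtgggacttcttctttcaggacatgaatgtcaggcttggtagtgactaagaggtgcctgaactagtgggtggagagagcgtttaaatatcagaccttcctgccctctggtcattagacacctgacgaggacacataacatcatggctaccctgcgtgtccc
Tnfsf13b, chr8:10006217-10006516, plus strand: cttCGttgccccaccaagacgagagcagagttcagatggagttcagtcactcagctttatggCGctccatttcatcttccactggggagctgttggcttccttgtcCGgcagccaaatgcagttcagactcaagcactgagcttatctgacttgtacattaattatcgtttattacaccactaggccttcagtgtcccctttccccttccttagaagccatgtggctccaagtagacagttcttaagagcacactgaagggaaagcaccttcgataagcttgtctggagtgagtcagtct

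The placed CpGs did not all lose the same amount. In the promoter of E030011O05Rik, the capitals from left to right are at positions -74, -56 and -47 from the start, in bp. The first had 8.33% and 19.51% in Div8neg and 38.46% and 38.10% in Div0 and did not pass. The second had 38.46% and 19.51% in Div8neg and 87.50% and 70.45% in Div0, and the third 30.77% and 21.95% in Div8neg and 87.50% and 93.18% in Div0, and both passed. In the Ccl22 promoter, of a chemokine that attracts Ccr4-bearing T cells, the 3 CpGs lay at -221, -210 and -186 bp. All 3 passed, with differences of -28.24, -24.04 and -27.88 points. The hosts were uneven there, and the promoter mean differed by -13.2 points in host 196 and by -33.9 points in host 197. The CpG at -221 bp had 60.87% and 34.69% in Div8neg and 69.70% and 82.35% in Div0. Of the 3 in the Tnfsf13b promoter, the one at -247 bp passed, with 66.67% and 57.14% in Div8neg and 81.58% and 86.76% in Div0. CpGs so close together share sequencing reads and are not independent.

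Runs of 3 or more passing CpGs at most 500 bp apart gave 343 lower and 11 higher regions, which held 23.2% of the lower CpGs. The lower regions had a median length of 156 bp, 82 had at least 5 passing CpGs and 5 had at least 10. Introns were touched by 173 of them, promoters by 39, and 110 were intergenic only. The values that follow describe the regions and test nothing, since the CpG test chose them.

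Of the 12 lower regions taken as those with the most passing CpGs, 10 were lower by over 20 points in each host. The last 2 of the 12 come from 5 regions that tie at 8 passing CpGs; Ryr1, at 53.8% and 64.3% in Div8neg and 95.1% and 92.3% in Div0, and Pik3r2, at 32.1% and 31.2% in Div8neg and 66.6% and 68.1% in Div0, are among the other 3. An intronic and exonic stretch of Runx3, a transcription factor of lymphocytes, had 57.1% and 47.8% in Div8neg and 89.4% and 91.8% in Div0 over 21 covered CpGs, and still stood at 84.2% and 79.9% in Div5. An intergenic region upstream of Arhgef11 reached 28.8% and 29.7% in Div8neg against 92.4% and 89.5% in Div0, close to the 27.0% and 23.1% of Div8pos. Tfcp2, a transcription factor gene, reached 15.8% and 18.5% in Div8neg against 65.9% and 57.2% in Div0, and an intergenic region of chromosome 5 (149814151 to 149814447, mm9) 25.2% and 26.4% in Div8neg against 74.6% and 72.3% in Div0. The last stood at 3.17% and 3.34% in Div8pos. Uggt1, which checks the folding of glycoproteins in the secretory pathway, had 36.9% and 41.9% in Div8neg and 79.6% and 67.2% in Div0. Zfp710, Rassf3, Ror2, Camk2a and Ppp6r3 made up the rest of the 10, with 60.4% as the highest Div8neg level and 66.1% as the lowest Div0 level.

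The region with the most CpGs did not lose alike in both hosts. Its 22 intergenic CpGs on chromosome 8 (125952484 to 125953920, mm9) stood at 94.8% in host 196 and 42.9% in host 197 in Div8neg, and at 98.4% and 92.9% in Div0. A further 3 of the 343 regions lay beside it and showed the same split, with Div8neg at 86.9 to 94.2% in host 196 and at 38.9 to 45.9% in host 197. The split ran through other fractions: the 22 CpGs stood at 96.5% and 53.8% in Div5 and at 91.5% and 33.4% in Div8pos, but at 79.7% and 75.6% in Div3. A region in an intron of AI506816 (chromosome 5, 23212739 to 23213148) also split, at 91.9% and 50.3% in Div8neg and at 98.5% and 92.4% in Div0. These, and a region of Bcas1 at 46.3% and 24.9% in Div8neg and at 75% and 85.1% in Div0, are the 6 of 343 regions whose hosts differed by more than 30 points.

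The curated gene lists held small numbers of genes that passed by the gene mean. Over all genes, 1.49% were lower and the median difference was -2.28 points. Of 38 measured Toll-like receptor and NF-kB genes 3 were lower (7.89%), with a median of -3.54 points. The same values were 3 of 30 B cell identity genes (10.0%, -3.28) and 2 of 29 plasma cell genes (6.9%, -2.78). They were 2 of 19 migration and homing genes (10.5%, -2.67) and 3 of 29 interferon response genes (10.3%, -2.34). Of 15 Gimap and lymphocyte GTPase genes 2 were lower (13.3%, -5.99). These shares rest on 2 or 3 genes per list, and the lists were chosen with earlier results of these data known. Among 26 genes of the DNA methylation machinery 1 was lower (3.85%), Apobec1, and the list's median was -2.28 points. None of the cell cycle (37 measured), secretion and unfolded protein response (31), immediate early (30), Runx, Ets and Fox factor (22), imprinted (27) or germline (24) genes passed in either direction by the gene mean. The same holds for the markers of T cells (18), myeloid cells (13), NK cells (8) and erythroid cells (7), although in these lists the promoters of Cd2, Itgam and Epor fell, by 10.1, 11.7 and 19.7 points. In the cell cycle list the promoter of Ccnd3, a cyclin of lymphocytes, fell by 12.3 points, and in the interferon list that of Usp18 by 13.8. Parts other than promoters also passed as lower in listed genes whose gene mean did not. Examples are the intergenic CpGs of Canx, by 21.4 points, and the introns of E2f1, by 14.1, Hspa5, by 11.9, and Runx3, by 11.1. Of 14 precursor B cell genes 0 were lower and 1 higher.

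In the Toll-like receptor and NF-kB list, 3 genes of IκB proteins had lower parts. Nfkbia encodes IκBα, which holds NF-kB in the cytoplasm and is itself induced by it. Its 5 exonic CpGs, 1996 to 2134 bp from the start (chromosome 12, 56591499 to 56591637, mm9), stood at 22.4% and 23.2% in Div8neg and at 92.2% and 90.2% in Div0. They fell by 68.4 points (limma, SE 1.39, adjusted p 4.72e-07), and all 5 passed singly. The same CpGs averaged 62.0% in Div3, 34.8% in Div5 and 4.36% in Div8pos. Nearer to the start the gene was not methylated in either group, since the 8 CpGs at -100 to -669 bp stood between 0% and 10.0% in the 4 libraries. Nfkbiz, an inducible nuclear IκB protein, had 40.1% and 52.6% in Div8neg and 90.9% and 84.8% in Div0 over 4 intronic CpGs, a difference of -41.5 points (limma, SE 4.27, adjusted p 0.00135). Its 15 intergenic CpGs, spread from 55776363 to 55808020 on chromosome 16, were lower by less, at 74.4% and 75.3% in Div8neg and 88.8% and 87.1% in Div0. Nfkbie, which encodes another IκB protein, had 43.7% and 44.1% in Div8neg and 57.4% and 55.1% in Div0 over 7 exonic CpGs (limma, adjusted p 0.00477).

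**Figure D3:**
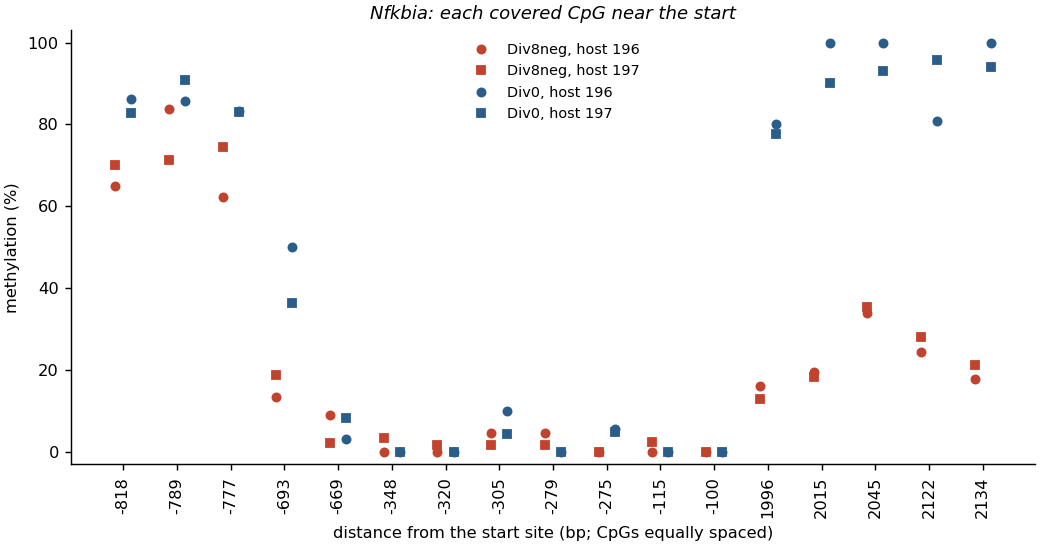
Methylation (%) of each covered CpG within 5 kb of the start of Nfkbia, by distance from the start (bp, CpGs equally spaced), in Div8neg (red, left of each pair) and Div0 (blue, right), with host 196 as circles and host 197 as squares. The 5 exonic CpGs are lower in Div8neg, while the 8 CpGs at -100 to -669 bp lie between 0% and 10.0% in both groups.

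Of the 23 measured promoters of the Toll-like receptor and NF-kB list 2 were lower, Tlr6 and Irak2, beside 1.79% of all promoters. Tlr6, which pairs with Tlr2 to sense lipopeptides, had 28.3% and 36.2% in Div8neg and 61.0% and 58.7% in Div0 at its promoter. Irak2, a kinase below these receptors, had 44.5% and 38.7% in Div8neg and 60.7% and 54.0% in Div0. Tlr4, the receptor of LPS itself, had 86.9% and 89.9% in Div8neg and 93.3% and 92.5% in Div0 over 5 CpGs and did not pass (limma adjusted p = 0.0858).

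Of the B cell identity list, Fcrl1, a receptor of the B cell surface, fell by 12.4 points (SE 1.66), Blk, a Src family kinase of B cells, by 12.2 (SE 2.04), and Cd37, a tetraspanin, by 10.2 (SE 2.12), with adjusted p by limma of 0.0012, 0.00276 and 0.00634. The Cd37 difference did not reach 10 points without the Div8neg library of host 197 (-7.19) or the Div0 library of host 196 (-9.44), and was -5.41 points with reads summed over CpGs. At promoters, Ciita, the master regulator of class II genes, had 17.2% and 18.1% in Div8neg and 38.9% and 37.0% in Div0, and Blnk, the adaptor of the B cell receptor, had 33.9% and 32.5% in Div8neg and 48.2% and 47.9% in Div0. Pax5, which holds B cell identity, had a gene mean of 15.7% and 16.0% in Div8neg and of 20.1% and 18.2% in Div0 over 106 CpGs, a difference of -3.34 points that is below the limit of 10.

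Among plasma cell genes, Il10, a cytokine of activated B cells, had 55.4% and 55.0% in Div8neg and 71.4% and 72.2% in Div0 over 23 CpGs, and fell by 16.6 points (limma, SE 1.39, adjusted p 0.000264). Tnfrsf13b, which encodes the receptor TACI, had 74.8% and 68.3% in Div8neg and 82.9% and 84.7% in Div0 and fell by 12.3 points (limma, SE 2.37, adjusted p 0.00485). Prdm1 had 56.8% and 57.2% in Div8neg and 61.6% and 62.4% in Div0 over 74 CpGs and, at -5.07 points, did not reach 10. A lower region of 6 CpGs assigned to Prdm1, 41189 bp from the nearest start (chromosome 10, 44120496 to 44120755, mm9), was at 57.2% and 56.3% in Div8neg and 92.7% and 96.0% in Div0, which stood at 5.03% and 3.55% in Div8pos. Irf4 differed by -1.70 points (limma adjusted p = 0.182). Sdc1, the gene of the sorted marker, was at 44.0% and 44.8% in Div8neg and at 48.7% and 47.3% in Div0, a difference of -3.61 points.

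Among homing genes, S1pr1, the receptor by which lymphocytes leave tissues, had 28.8% and 29.8% in Div8neg and 47.9% and 44.5% in Div0 over 24 CpGs. It fell by 16.9 points (limma, SE 1.31, adjusted p 0.000192), and by 8.20 points, under the limit, when only CpGs within 5 kb were used. Cxcr5, which guides B cells into follicles, fell by 10.7 points (limma, SE 1.24, adjusted p 0.000774), with 46.7% and 50.9% in Div8neg and 58.8% and 60.3% in Div0. Its difference was -8.60 points without the Div8neg library of host 196, -9.99 without the Div0 library of host 197 and -7.04 with reads summed over CpGs, none of which passed. The promoter of Ccr6, another homing receptor of B cells, had 28.3% and 40.5% in Div8neg and 70.0% and 59.6% in Div0. Psmb9, an interferon-inducible proteasome subunit, had 47.2% and 52.6% in Div8neg and 64.0% and 64.9% in Div0.

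Of the 302 higher CpGs, 82.8% had started under 20%, beside 80.8% of all CpGs that could rise, and 66 ended over 50%. Of the 7 higher promoters, 6 are described. Kpna1, a nuclear import adaptor, rose by 17.7 points, 1700012B09Rik by 17.1, Nespas, an imprinted antisense transcript of the Gnas cluster, by 16.6, Ppp1r9b, a scaffold of protein phosphatase, by 13, Mad1l1, of the spindle checkpoint, by 11.9, and Milr1, a receptor of mast cells, by 10.4. Each of these 6 lost its call without the Div0 library of host 196 or without the Div8neg library of host 197. Without that Div0 library 2 promoters were higher, Mad1l1 among them. Nespas had 52.1% and 53.3% in Div8neg and 35.6% and 36.7% in Div0, and no other promoter of the 20 measured imprinted promoters passed. By gene mean, Igll1 and Bckdha were the 2 higher genes. Igll1, a part of the surrogate light chain of B cell precursors, had 42.8% and 42.6% in Div8neg and 34.1% and 27.8% in Div0. Its difference was 8.55 points without the Div0 library of host 197 and 2.18 points with reads summed over CpGs. Bckdha, of the breakdown of branched-chain amino acids, had 58.6% and 57.5% in Div8neg and 46.0% and 48.8% in Div0, and 9.27 points without the Div0 library of host 196.

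Promoters of markers of other cell types were read beside these gains. The promoter of Cd3e, the only one of the 6 T cell markers with enough covered CpGs, was at 92.6% and 90.8% in Div8neg and at 97.6% and 96.7% in Div0. Of the 5 myeloid markers, Itgam was at 82.6% and 86.0% in Div8neg and at 97.6% and 94.3% in Div0, and Csf3r at 12.5% and 4.71% in Div8neg and at 12.3% and 5.75% in Div0. None of the 4 defining markers of NK cells or 3 of erythroid cells had a measured promoter. Their part in the gains was not tested. CpGs of the mitochondrial genome, which bears on how far bisulfite conversion went, had 2.83% and 2.63% methylated reads in Div8neg and 2.71% and 1.71% in Div0. As a mean over these 59 CpGs the level was 9.65% and 3.07% in Div8neg and 4.81% and 2.34% in Div0. Their part in the gains was not tested either.

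The following 3 genes with gains in an exon or between genes were chosen after their values were seen. Cd93, a receptor of immature B cells and plasma cells, had 19.5% and 21.9% in Div8neg and 6.15% and 6.91% in Div0 over 6 exonic CpGs, and rose by 14.2 points (limma, SE 2.15, adjusted p 0.00477). Cxcr4, which draws plasma cells to the bone marrow, had 72.1% and 76.5% in Div8neg and 61.5% and 62.2% in Div0 over 9 exonic CpGs, while its 4 intergenic CpGs fell by 10.4 points. Gimap3 had 49.4% and 46.2% in Div8neg and 32.8% and 33.7% in Div0 over 7 intergenic CpGs, on the chromosome 6 cluster that also holds Gimap4, where the change was a loss. The Cd93 exon averaged 21.6% in Div5 and 25.3% in Div8pos, the Cxcr4 exon 71.3% in Div5 and 64.7% in Div8pos, and the Gimap3 CpGs 36.8% in Div5 and 30.2% in Div8pos.

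The 11 higher regions held 36 of the 302 higher CpGs. Ttc7b had the most, 6 passing of 9 covered intronic CpGs, with 33.2% and 35.9% in Div8neg, 11.9% and 10.4% in Div8pos and 12% and 13.5% in Div0. Kit, the stem cell factor receptor, had 26.7% and 34.3% in Div8neg, 7.84% and 3.64% in Div8pos and 1.08% and 1.20% in Div0 in an intron. The region assigned to Fos, an immediate early gene 40519 bp away, had 46.6% and 52.4% in Div8neg, 20.7% and 22.4% in Div8pos and 13.4% and 15.2% in Div0. In these regions and in those of Plscr3, Ctif, Gimap3, Ret, Klf2 and Sorl1, both Div8neg libraries lay above both Div8pos libraries. The regions were chosen for high Div8neg levels, which favours this order, so it is a description. Ret split by host, at 18.6% and 49.9% in Div8neg. Stx11 was at 39.0% and 43.6% in Div8pos beside 48.5% and 43.8% in Div8neg, and Fam65c at 21.3% and 23.0% in Div8pos beside 26.6% and 21.8% in Div8neg. The largest single gains with at least 30 reads were 2 intronic CpGs of Sorl1, a sorting receptor, with 38.8 and 32.0 points, and CpGs near no named gene and in Mtss1, an actin-binding protein, with 35.0 to 31.7 points.

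**Figure D4:**
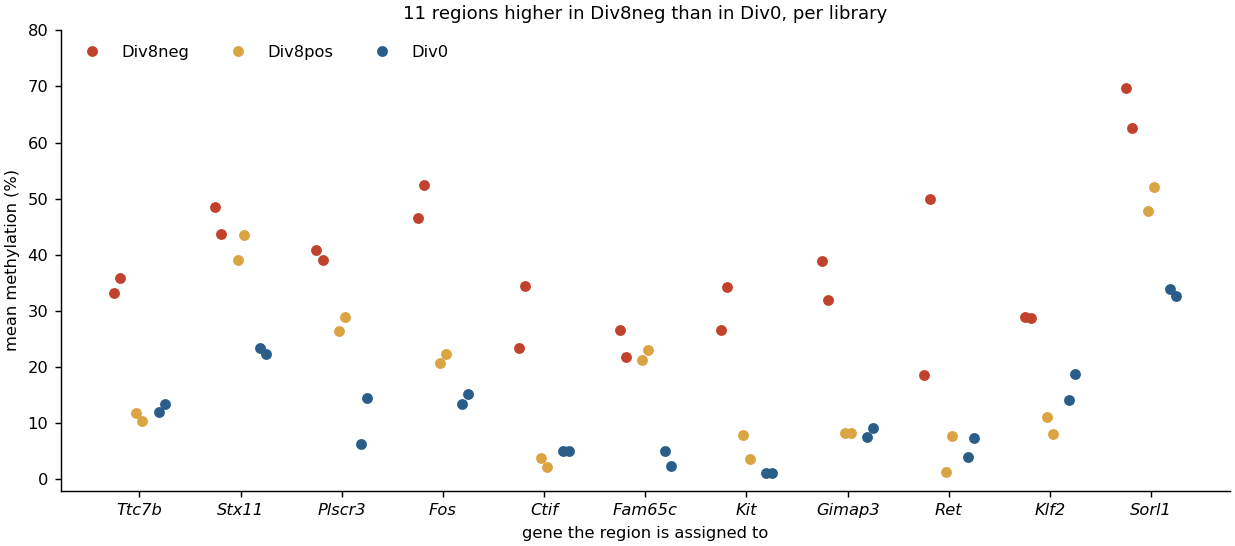
Mean methylation (%) of the 11 regions higher in Div8neg than in Div0, named by the gene they are assigned to, in each library of Div8neg (red), Div8pos (yellow) and Div0 (blue). Both Div0 libraries lie below both Div8neg libraries in every region, an order favoured by the choice of the regions on these libraries. Div8pos lies near Div0 in Ttc7b, at 11.9% and 10.4%, and near Div8neg in Stx11, at 39.0% and 43.6%.

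The other fractions show how the passing CpGs stood between the extremes. At the lower CpGs the mean was 87.1% and 86.6% in Div0, 82.7% and 82.2% in Div1, 78.8% and 78.1% in Div3, 72.5% and 70.9% in Div5, 53.7% and 52.8% in Div8neg and 46.5% and 45.0% in Div8pos. The step between Div5 and Div8neg was the largest, and both hosts kept the same order. At the higher CpGs it was 10.6% and 11.1% in Div0, 16.3% and 17.0% in Div1, 20.4% and 19.9% in Div3, 21.9% and 21.5% in Div5, 37.7% and 38.3% in Div8neg and 19.4% and 18.7% in Div8pos. Div0 and Div8neg chose these CpGs, so their levels at both ends are a description.

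**Figure D5:**
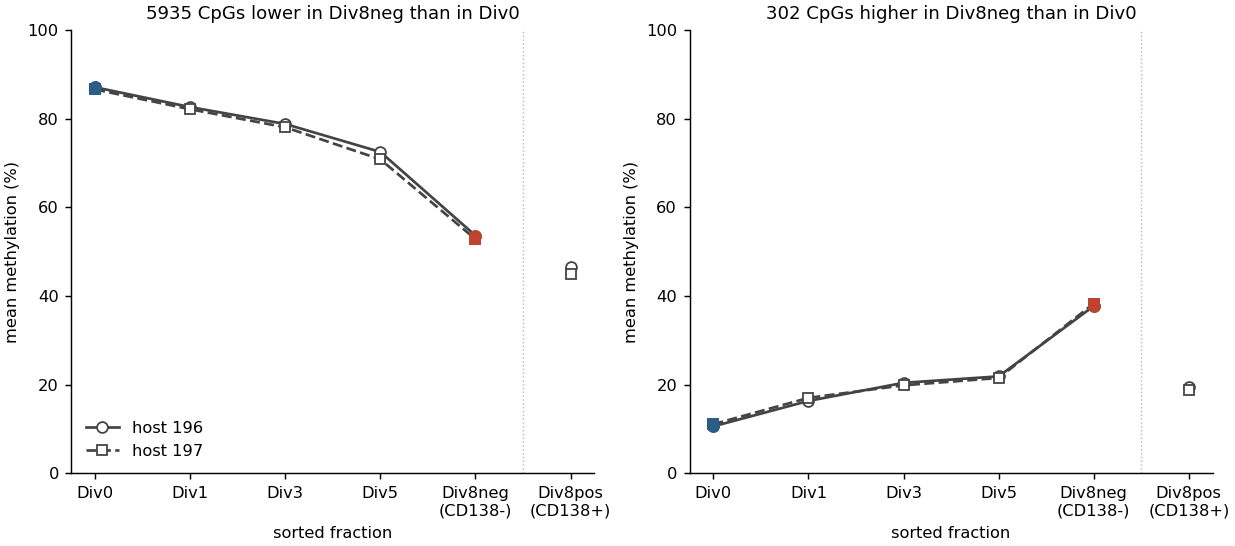
Mean methylation (%) of the 5935 lower CpGs (left) and the 302 higher CpGs (right) in each sorted fraction, with host 196 as circles and host 197 as squares, Div0 in blue and Div8neg in red. The lower CpGs decline through Div5 and further to Div8neg and Div8pos, while the higher CpGs peak in Div8neg at 37.7% and 38.3% and stand at 19.4% and 18.7% in Div8pos.

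Contrasts that share no library with Div8neg or Div0 gave an independent reading of the same CpGs. Between Div8pos and Div5, 3159 of the 5935 lower CpGs (53.2%) were lower and 1 higher, where 4.5% of all CpGs were lower and 0.00868% higher. Between Div5 and Div1, 609 of them (10.3%) were lower and 0 higher, where 0.0948% and 0.00263% of all CpGs were. The 5935 all stood at 20% or more in Div0, as did only 466993 of the 760348 CpGs. The shares of lower CpGs over all CpGs are thus low as a comparison. Of the 302 higher CpGs, 7 (2.32%) were lower and 0 higher between Div8pos and Div5. Between Div5 and Div1, 4 of them (1.32%) were higher and 0 lower, with 211 positive and 90 negative differences.

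Each host was also used to choose CpGs, with Fisher's exact test on its own reads, and the other to read them. Host 196 chose 377 lower CpGs, of which 375 (99.5%) were lower in host 197, with a mean of 32.7% in Div8neg and 81.1% in Div0 there. Host 197, with deeper libraries, chose 3907 lower CpGs, of which 3561 (91.1%) were lower in host 196, with a mean of 58.9% in Div8neg and 84.8% in Div0 there. Gains followed less well. Of 204 CpGs that host 197 chose as higher, 176 (86.3%) were higher in host 196, but of 14 that host 196 chose, 2 (14.3%) were higher in host 197, where the 14 averaged 21.6% in Div8neg and 34.0% in Div0. These shares lack a base rate, since the direction of other CpGs of like starting level was not counted. All CpGs that started at 80 to 90% differed on average by -7.358 points in host 196 and -6.979 points in host 197. A shared direction of losses is thus weak evidence by itself. The chosen lower CpGs differed by more when read, by -25.95 points in host 196 and -48.48 points in host 197.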

How the data were processed

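Splenic B cells sorted by division from 2 hosts on day 3 were measured by reduced representation bisulfite sequencing from 20 ng of DNA, with single 50 bp reads, per the labels' protocols. The submitters' processing notes name mm9, Bismark and Bowtie2; tool versions are not given in the sources used. The deposited table gives counts of methylated and unmethylated reads per CpG, with both strands joined, for CpGs of at least 10 reads in every library, the methylated fraction of reads that the authors derived from them, and the authors' annotation of each CpG to a gene. Such a filter removes CpGs that are thinly read in any library, and intervals from counts cover counting error only.

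Single CpGs were tested on these counts with a quasi-binomial model over all 12 libraries (numpy 2.4.6, scipy 1.17.1, dispersion 1.16 pooled with limma 3.58.1), with Benjamini-Hochberg adjustment over all CpGs. Gene, promoter, exon, intron and intergenic means were tested with limma over all 16505 genes or all 42020 gene parts. A gene's CpGs lay within 50 kb of its start. Both tests recovered known changes in simulated data. The CpG simulation gave all CpGs a common spread, so it cannot tell whether sharing the spread suits the real CpGs. The members and gene lists were chosen with earlier results of these data known. The genes named are the 20 lower genes and 10 lower promoters with the largest differences, every higher one, the 12 lower regions with the most CpGs, every higher region, list members that passed and some key genes; others are named as chosen after their values were seen. Hosts pair the libraries, since the labels give one animal for both fractions of a host; deviations of same-host libraries had a correlation of -0.00996 over 73762 CpGs. Whether the 2 hosts got cells of separate donors is not stated, so p-values of gene and gene-part means measure the spread between these libraries. Those of single CpGs rest on the pooled dispersion shared by all CpGs, and not on the spread between hosts at each CpG. No column of per-sample values was left unmapped. Libraries were compared for duplicates, and none agreed within sampling noise. Alternatives tried were the host as a block, other coverage, size, distance and CpG limits, summed reads, 4 libraries only, edgeR 4.0.16 and leaving out each library. Results that need certain withheld genes are not reported here.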

Additional observations from a re-analysis of the deposited data

How the results depend on the processing

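With the host as a replicate block, 5311 CpGs were lower and 264 higher, 324 regions lower and 11 higher, 245 genes lower and 2 higher, and 180 promoters lower and 7 higher, so the pairing moved none of these counts by over 1.5 times. Lower CpGs numbered 2655 with at least 20 reads, 9114 at a limit of 10 points, 0 with a dispersion for each CpG alone (an alternative chosen after seeing the data) and 1046 to 5145 with 1 library left out; higher CpGs numbered 168, 564, 0 and 24 to 288. Lower regions numbered 150 with at least 20 reads, 82 with at least 5 CpGs and 80 to 268 with 1 library left out; higher regions numbered 6, 1 and 0 to 10, and 28 at 10 points. Lower genes numbered 807 with summed reads, 144 within 5 kb, 118 with at least 10 CpGs, 2395 at 5 points and 191 to 339 with 1 library left out; higher genes numbered 7 with summed reads, 1 with at least 10 CpGs, 11 at 5 points and 2 to 5 with 1 library left out. Lower promoters numbered 64 with 4 libraries only, 67 with at least 6 CpGs, 526 at 5 points and 91 to 207 with 1 library left out; higher promoters numbered 3, 1, 19 and 2 to 8, and 4 with summed reads. The mean difference was -5.80 points with summed reads and -2.42 points with at least 20 reads. Of CpGs chosen in host 197 at 30 points, 93.5% of lower and 91.5% of higher ones had the same direction in host 196, again without a base rate. Leaving out the Div8neg library of host 197 gave 1821 lower and 76 higher CpGs, 98 lower and 1 higher regions and 5 higher genes. Leaving out the Div0 library of host 197 gave 1046, 24, 80 and 0, and leaving out that of host 196 gave 200 higher CpGs, 91 lower promoters and 2 higher promoters. Of 516 values of 67 single genes and promoters, 448 stayed on the same side of the limits, 67 no longer passed, 1 newly passed and 0 changed sign; the cause was not tested. A CpG had a median of 20 to 52 reads in these libraries, which limits the precision of single levels.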

Other observations

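Methylation around further lymphocyte genes differed in single gene parts, named after their values were seen. Rassf3, a Ras association protein, had 22 lower CpGs of 154 covered, and Foxp1, a transcription factor of B cell development, had 18 of 273. Of all CpGs, 0.781% were lower. A lower region of Mapkapk2, a kinase below p38 (chromosome 1, 132943327 to 132943608, mm9), stood at 8.58% and 11.1% in Div8neg and at 69.9% and 64.4% in Div0 in hosts 196 and 197. Of 18808 genes with a covered CpG, 3013 had a lower CpG, 216 had a higher CpG and 91 had both.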
